A study of Mus musculus with 8 samples.

Results

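The genes described are Fos, Jun, Junb, Jund, Atf3, Klf6, Dusp1, Btg2, Maff and Egr1, immediate early and stress genes taken by name, 10 of the 19065 genes in the deposited matrices. Immediate early genes are switched on within minutes of a stimulus without new protein synthesis, and many of their transcripts decay quickly. Fos, Jun, Junb and Jund encode subunits of AP-1, a dimeric transcription factor joined through leucine zippers. Atf3 encodes a stress-induced partner of that family, Klf6 and Egr1 encode zinc finger factors, and Maff encodes a small Maf protein that lacks a transactivation domain. Dusp1 encodes a phosphatase that inactivates MAP kinases, and Btg2 encodes an antiproliferative protein that promotes the removal of mRNA tails. In the intestine these transcripts are also known to rise during tissue handling and cell dissociation.

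Each of the 10 genes has a row in all 8 matrices. The libraries came from colons of C57BL/6 mice, 4 fed fish oil and pectin and 4 fed corn oil and cellulose, each diet for 3 weeks, with 1 library per mouse. The labels give no sex or age. For each library, 2 sections of 50 µm were cut from a paraffin-embedded colon roll, dissociated and profiled with the fixed RNA assay of 10x Genomics, in which pairs of gene-specific probes are counted as UMIs (unique molecular identifiers). The series title names ferroptosis of colonocytes, an iron-dependent cell death. Probe pairs differ in number and efficiency between genes, so UMIs are compared here between mice and barcode types within a gene, and not between genes.

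The 8 libraries held 8588 barcodes. Fish oil/pectin libraries had 290 to 969 barcodes and 34758 to 200700 UMIs, and corn oil/cellulose libraries had 106 to 5180 barcodes and 81400 to 245476 UMIs. Haemoglobin genes took 6.37% to 54.3% of UMIs in fish oil/pectin mice and 0.0086% to 40.6% in corn oil/cellulose mice. Corn oil/cellulose mouse 1 stood apart with 5180 barcodes at a median of 26 UMIs, and corn oil/cellulose mouse 3 with 106 barcodes and almost no haemoglobin. From shared droplet barcodes 2 pools were read, pool 1 with fish oil/pectin mouse 1 and corn oil/cellulose mice 1 to 3, and pool 2 with the remaining 4 mice. In all, 189 droplet barcodes of 16 bases were shared within pools and 24 between them, and 6 whole barcodes were shared, each between pools. The pools are inferred: of all splits into 4 and 4 mice, the one with the most sharing inside was taken. More sharing within pools is therefore favoured by that choice and is no check on it. Pairs of mice shared 1 to 64 droplet barcodes within pools and 0 to 8 between them. Results that rest on single libraries are given with and without them.

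The titles call the samples colonocytes, whereas the source is given as colon, and colonocyte marker-led barcodes were 391 of the 8588. A barcode was called haemoglobin-led where haemoglobin genes held at least 50% of its UMIs, and otherwise took the marker list with at least 3 UMIs from at least 2 genes and at least 2 times the UMIs of any other list. Besides the colonocyte group this gave 1190 haemoglobin-led, 378 goblet and 88 fibroblast marker-led barcodes, and 6439 stayed unassigned at a median of 29 UMIs. Of these 4924 were from corn oil/cellulose mouse 1, without which 1515 of 3408 barcodes were unassigned. Muc2, the main secreted mucin, had 3365 UMIs in goblet and 77 in colonocyte marker-led barcodes, and Slc26a3, a chloride exchanger of colonocytes, had 652 in colonocyte and 49 in goblet marker-led barcodes. Col3a1, a fibrillar collagen, had 155 of its UMIs in fibroblast marker-led barcodes. These groups are ranges of marker counts and not separated populations: 344 marker-led barcodes had 3 or 4 marker UMIs, 1397 barcodes had 2 to 4 UMIs of their best list, and 40 held 40% to 60% haemoglobin.

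Levels are given as CPM, UMIs per 1000000 UMIs of the mouse or barcode type, or as non-haemoglobin CPM, for which UMIs of haemoglobin genes were left out of that total. Together the 10 genes had 2661 UMIs, of which Jund (ENSMUSG00000071076) had 1164 and Egr1 25. Between these lay Btg2 with 335, Klf6 with 283, Fos with 279, Atf3 with 183, Dusp1 with 148, Jun and Junb with 92 each, and Maff with 60. At such counts a mouse often held fewer than 10 UMIs of a gene, and exact Poisson intervals at 95% are drawn in the plot of levels by mouse; they cover counting error only.

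Promoter sequence is shown for 4 genes because it is where signal-driven factors are known to act on this family: CREB and ATF proteins bind the cyclic AMP response element (CRE). The sequences are RefSeq windows on GRCm38.p6, from 250 bases before to 50 after a transcript start, read 5′ to 3′ on the gene's strand; the submitters' notes name both mm10 and GRCm39, so the windows describe the genes and not the reads. Capitals mark the full CRE TGACGTCA, its core TGACG on either strand (CGTCA when it lies on the other strand), and TATAAA. The windows are Fos at chr12:85473640-85473939 (+), Atf3 at chr1:191183284-191183583 (-), Dusp1 at chr17:26508423-26508722 (-) and Maff, from the second of its 3 starts, at chr15:79347270-79347569 (+).
Fos: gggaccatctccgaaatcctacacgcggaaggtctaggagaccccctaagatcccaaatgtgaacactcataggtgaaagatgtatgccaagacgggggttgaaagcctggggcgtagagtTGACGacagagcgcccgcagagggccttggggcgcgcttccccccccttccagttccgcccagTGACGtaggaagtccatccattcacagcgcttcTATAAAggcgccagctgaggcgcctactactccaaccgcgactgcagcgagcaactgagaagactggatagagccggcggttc
Atf3: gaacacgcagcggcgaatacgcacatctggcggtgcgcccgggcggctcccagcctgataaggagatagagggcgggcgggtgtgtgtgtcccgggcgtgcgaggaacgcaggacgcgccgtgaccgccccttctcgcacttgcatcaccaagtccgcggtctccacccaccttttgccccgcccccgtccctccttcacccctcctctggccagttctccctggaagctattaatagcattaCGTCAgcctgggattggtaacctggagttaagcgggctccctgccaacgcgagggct
Dusp1: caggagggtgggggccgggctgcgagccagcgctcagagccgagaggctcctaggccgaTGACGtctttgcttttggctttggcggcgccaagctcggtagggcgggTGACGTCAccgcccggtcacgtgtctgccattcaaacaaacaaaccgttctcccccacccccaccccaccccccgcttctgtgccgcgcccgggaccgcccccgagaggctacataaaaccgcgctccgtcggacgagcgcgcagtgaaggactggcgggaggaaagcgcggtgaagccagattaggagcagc
Maff: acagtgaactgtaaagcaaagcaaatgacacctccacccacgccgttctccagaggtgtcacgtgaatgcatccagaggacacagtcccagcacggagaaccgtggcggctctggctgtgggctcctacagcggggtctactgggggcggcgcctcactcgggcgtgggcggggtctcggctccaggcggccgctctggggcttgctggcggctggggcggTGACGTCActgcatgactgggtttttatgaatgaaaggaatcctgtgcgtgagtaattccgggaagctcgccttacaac

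Windows of 9 of the 10 genes were searched, with 3 starts for Maff. Egr1 was left out of the search, so nothing is said here of its promoter. Dusp1, Btg2 and Maff held the full CRE, 3 of 9 (33.3%), where 2.03% of 27025 genes did. Counting the full elements again, 6 of 9 (66.7%) held TGACG, among them Fos with 2, Junb and Atf3, against 23.0% of genes. Fos and Junb, 2 of 9 (22.2%), held TATAAA, against 15.7% of genes. The AP-1 site TGACTCA and the serum response factor's CArG box (CC, then 6 of A or T, then GG) were in the windows of 0 of 9 genes, against 5.95% and 1.81% of genes. These counts do not include Egr1. A match is only a match of letters, and its absence says only that these letters are not in this window.

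Among the AP-1 genes, Fos (ENSMUSG00000021250) had 57.5, 188, 66.2 and 179 CPM in fish oil/pectin mice 1 to 4, and 248.6, 360, 676 and 257 in corn oil/cellulose mice 1 to 4. All 4 fish oil/pectin mice therefore lay below all 4 corn oil/cellulose mice. In non-haemoglobin CPM the diets overlapped, with 178 ± 83.0 in fish oil/pectin and 475 ± 198 in corn oil/cellulose mice (SD, n = 4 each). In such whole-library sums fewer cells of a type and less RNA per cell cannot be told apart. Jun, the classic partner of Fos, averaged 43.8 ± 27.9 CPM in fish oil/pectin and 104.9 ± 53.4 in corn oil/cellulose mice, and Junb averaged 43.9 ± 70.9 CPM in fish oil/pectin and 93.6 ± 40.9 CPM in corn oil/cellulose mice (SD, n = 4 each). Both genes overlapped between diets, and Junb was high in a single fish oil/pectin mouse, mouse 4 with 149 CPM. Jund, the AP-1 subunit that is present without stimulation in many tissues, had 460, 1140.2, 794 and 907 CPM in fish oil/pectin mice and 911, 1111, 1228.5 and 1153 in corn oil/cellulose mice, again with overlap.

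The other stress and feedback genes showed the same order of means. Atf3 (ENSMUSG00000026628) had 0, 45.3, 39.7 and 9.97 CPM in fish oil/pectin mice and 41.4, 100.1, 1560.2 and 93.7 in corn oil/cellulose mice, so 1 library set the corn oil/cellulose mean. Maff (ENSMUSG00000042622) had 0, 19.4, 0 and 9.97 CPM in fish oil/pectin mice and 51.8, 60.05, 209 and 89.6 in corn oil/cellulose mice, without overlap on this scale or outside haemoglobin genes. Those Maff levels rest on 0, 3, 0 and 2 UMIs in fish oil/pectin mice and 10, 6, 17 and 22 in corn oil/cellulose mice. Btg2 had 28.8, 227, 46.3 and 389 CPM in fish oil/pectin mice and 248.6, 440.4, 823 and 224 in corn oil/cellulose mice. Fish oil/pectin mice 2 and 4 were the high ones of their diet for Btg2 and overlapped with the corn oil/cellulose mice. Klf6 had 57.5, 123, 33.1 and 339 CPM in fish oil/pectin mice and 197, 370.3, 455 and 314 in corn oil/cellulose mice, with overlap. Dusp1 averaged 85.7 ± 56.5 CPM in fish oil/pectin and 190.4 ± 96.2 CPM in corn oil/cellulose mice (SD, n = 4 each), also with overlap. Egr1, with 0 to 4 UMIs per fish oil/pectin mouse and 3 to 6 per corn oil/cellulose mouse, was too sparse for a fit.

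**Figure D1:**
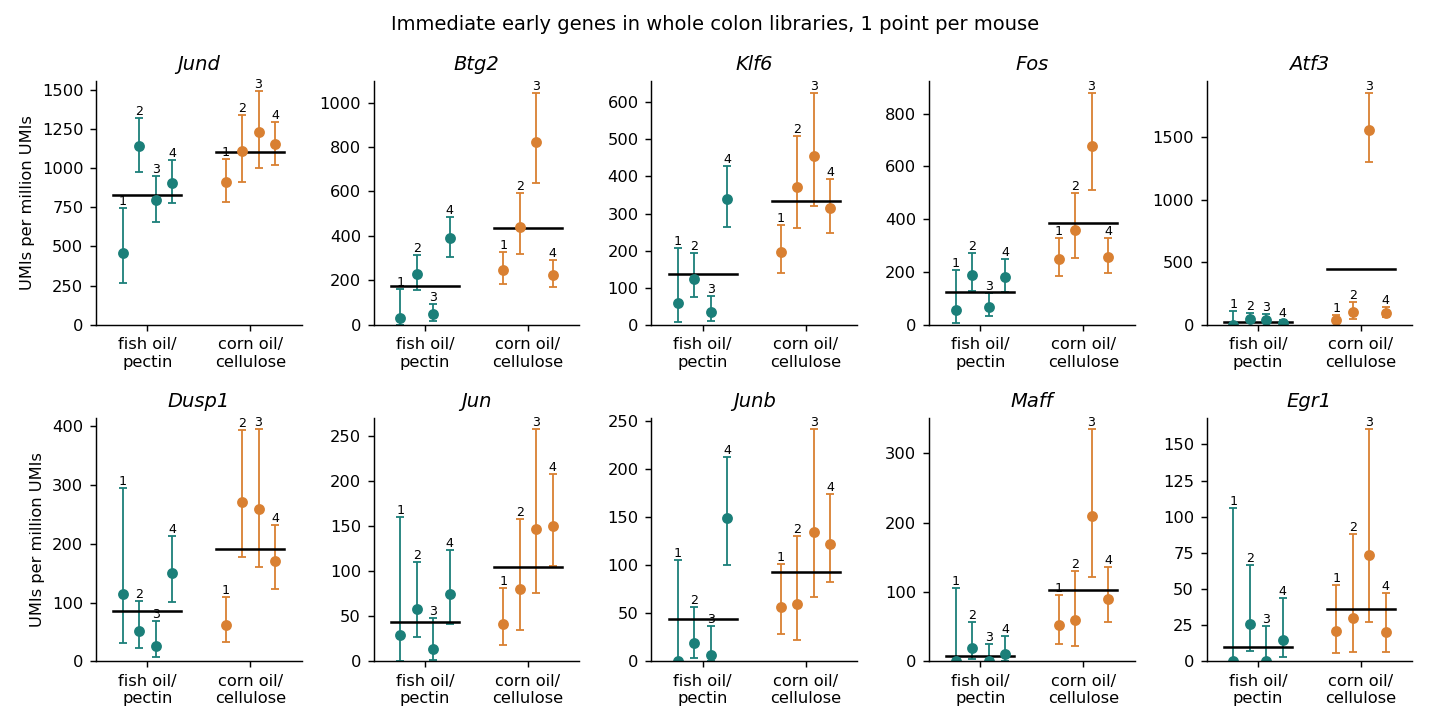
CPM (UMIs per 1000000 UMIs of the whole library; y axis, a scale of its own for each gene) for the 10 genes in 4 fish oil/pectin mice (teal, left) and 4 corn oil/cellulose mice (orange, right). Points are mice with their number, whiskers are exact Poisson 95% intervals and black lines are group means; Fos and Maff are the genes whose diets do not overlap, and Atf3 is dominated by corn oil/cellulose mouse 3.

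All 10 genes had the lower mean in fish oil/pectin mice, and for 2 of them, Fos and Maff, the groups did not overlap. In edgeR with scaling by library size alone, 67.0% of the 4471 genes tested lay below 0 in fish oil/pectin mice. Among the 7386 genes with at least 20 UMIs, 79 (1.07%) lay lower in fish oil/pectin mice without overlap and 8 (0.108%) lay higher. The quasi-likelihood test of edgeR across 4471 genes called 0 of them (0%) at an adjusted p under 0.05, and 108 (2.42%) had an unadjusted p under 0.05, 56 of them lower (1.25%). DESeq2 and limma voom also called 0, with 139 and 198 at an unadjusted p under 0.05. DESeq2 tested 4469 genes and gave no adjusted p for Atf3, so its 0 calls do not cover that gene. No member passed, each with a Benjamini-Hochberg adjusted p of 0.999 in edgeR, so no diet difference in these genes was established with 4 mice per diet.

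The fitted sizes were as follows, as log2 fold changes of fish oil/pectin over corn oil/cellulose. Of 9 members tested, 8 lay below 0 with a median of -1.05, beside a median of -0.027 over all genes tested, of which 52.4% lay below 0. Maff was at -3.08 (SE 0.74, unadjusted p = 0.000487 in edgeR) and Atf3 at -3.18 (SE 1.29, unadjusted p = 0.0298 in edgeR). Klf6 was at -1.10 (SE 0.50), Fos at -1.14 (SE 0.55), Dusp1 at -0.996 (SE 0.50) and Btg2 at -1.05 (SE 0.61). Jun was at -0.88 (SE 0.53) and Junb at -0.82 (SE 0.58), or -2.07 (SE 0.75) without fish oil/pectin mouse 4. Jund was at 0.28 (SE 0.74), and its sign turned to -0.57 without haemoglobin-led barcodes, -0.46 with scaling by library size alone and -0.45 with the pool in the fit.

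Within the inferred pools the sizes differed. Atf3 differed by -4.84 in pool 1 and -0.89 in pool 2, Fos by -2.65 in pool 1 and -0.33 in pool 2, Btg2 by -3.68 and 0.14 and Jund by -1.23 and 0.33 in pools 1 and 2 (log2, fish oil/pectin minus corn oil/cellulose). In pools 1 and 2 Maff was at -3.75 and -2.61, Junb at -3.59 and -1.37, Klf6 at -2.36 and -0.84, Jun at -1.29 and -1.23 and Dusp1 at -0.51 and -0.86. Each pool holds 1 mouse of one diet, so these values have no replicate check. In pool 1 that is fish oil/pectin mouse 1, the shallowest library with 34758 UMIs. It held 0 UMIs of Atf3, Maff and Junb, 1 each of Btg2 and Jun, and 2 each of Fos and Klf6. A small prior count was added before taking logs, and for the genes at 0 UMIs it sets the size of the pool 1 value. Atf3 was at -0.87 (SE 0.81) without corn oil/cellulose mouse 3, where Fos was at -0.81, Btg2 at -0.63 and Maff at -2.62. Without any filter on low counts Atf3 passed, at -3.32 (edgeR adjusted p = 0.0260), as 1 of 4 genes called among 18121 (0.0221%), whereas the adjusted p ran up to 1.00 over its alternatives.

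**Figure D2:**
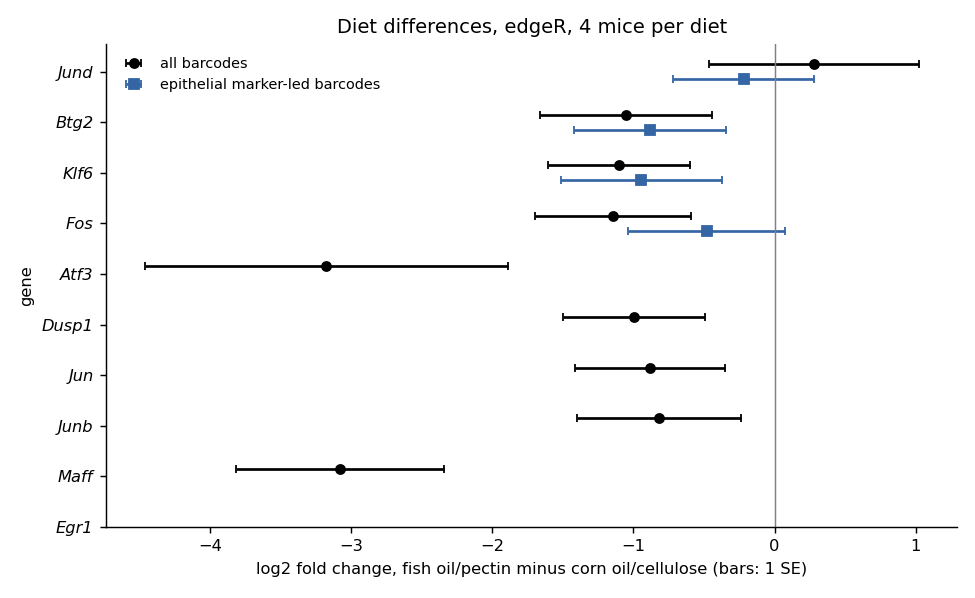
Log2 fold change of fish oil/pectin over corn oil/cellulose (x axis) from the edgeR fit, with 1 SE as bars, for sums over all barcodes (black circles) and over epithelial marker-led barcodes (blue squares), 4 mice per diet. Egr1 was not tested, 5 further genes were not tested in the epithelial sums, and Atf3 and Maff lie farthest from 0 at about 3 units below it.

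Cell make-up and RNA measures varied between mice, with overlap between the diets for each one given here. The goblet list (16 of 16 genes detected in either diet) summed to 2935 to 12994 CPM in fish oil/pectin mice and 3233 to 18527 in corn oil/cellulose mice. The colonocyte list (15 of 16 detected in either diet) summed to 2475 to 13174 in fish oil/pectin mice and 4314 to 10197 in corn oil/cellulose mice. Epithelial marker-led barcodes, goblet and colonocyte together, held 5.65%, 16.6%, 6.90% and 69.5% of UMIs in fish oil/pectin mice 1 to 4, and 3.52%, 14.5%, 34.1% and 45.2% in corn oil/cellulose mice. Mitochondrially encoded genes held 4.59% to 22.2% of UMIs in fish oil/pectin mice and 2.90% to 36.7% in corn oil/cellulose mice. The myeloid list summed to 119 to 173 CPM in fish oil/pectin mice (10 of 13 genes detected) and 102 to 480 CPM in corn oil/cellulose mice (13 of 13), and the fibroblast list to 299 to 3711 CPM in fish oil/pectin mice (13 of 14) and 197 to 3012 CPM in corn oil/cellulose mice (14 of 14). Without haemoglobin-led barcodes Fos was at -1.19, Atf3 at -3.09, Klf6 at -1.10 and Btg2 at -1.03 on the log2 scale. The part of the other measures in the diet values was not tested.

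In the epithelial marker-led barcodes alone, Jun averaged 235 ± 194 non-haemoglobin CPM in fish oil/pectin and 156 ± 104 in corn oil/cellulose mice (SD, n = 4 each), from 1 to 14 UMIs per fish oil/pectin mouse and 0 to 22 per corn oil/cellulose mouse, with overlap. Fos had a mean of 574 ± 347 non-haemoglobin CPM in fish oil/pectin and 572 ± 247 in corn oil/cellulose mice (SD, n = 4 each). The fish oil/pectin values were 1019, 352, 674 and 252, the first of them from 2 UMIs, and the corn oil/cellulose values were 294, 831, 721 and 442, so the groups overlapped throughout. Btg2 averaged 327 ± 226 in fish oil/pectin and 801 ± 417 in corn oil/cellulose mice, and Klf6 averaged 181 ± 185 in fish oil/pectin and 539 ± 564 in corn oil/cellulose mice (SD, n = 4 each), both with overlap. Maff averaged 13.4 ± 18.4 in fish oil/pectin and 141 ± 113 in corn oil/cellulose mice (SD, n = 4 each), and here corn oil/cellulose mouse 1 was at 0 among 6793 UMIs, with an exact Poisson upper limit of 543 CPM.

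The edgeR fit over these barcodes called 0 of 613 genes (0%), with 23 at an unadjusted p under 0.05 and 53.7% below 0. It tested 4 members, and all 4 were below 0: Fos at -0.48 (SE 0.56), Jund at -0.22 (SE 0.50), Klf6 at -0.94 (SE 0.57) and Btg2 at -0.88 (SE 0.54). None passed, at an edgeR adjusted p of 0.989 each, and their median was -0.68 beside -0.039 for all genes tested. Jund turned to 0.064 when goblet and colonocyte sums were fitted separately.

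Other genes of the same pathways were read from the whole-library fit, and none passed the edgeR test. Of all genes in that fit 52.4% lay below 0. Of the 3 tested among 8 other AP-1 family genes, 0 were above 0 and 3 below (median -0.39), led by Fosl2, a Fos-related AP-1 subunit, at -0.91 (SE 0.50). Of 35 other immediate early genes 19 were tested, 3 above and 16 below 0 (median -0.44). Cebpd, a transcription factor of the acute phase, was at -1.41 (SE 0.59), Zfp36, which destabilises AU-rich mRNAs, at -0.88 (SE 0.53), and Nfkbia, the inhibitor of NF-kappaB, at -0.78 (SE 0.44), whereas Ier5 was at 1.00 (SE 0.55). The 3 heat shock genes tested of 12 were above 0 (median 0.17), and of 3 integrated stress response genes tested of 12, 1 was above and 2 below (median -0.14). Of 11 small Maf and NRF2 genes 6 were tested, 3 above and 3 below (median -0.044), and of 13 MAP kinase and serum response genes 10 were tested, 5 above and 5 below (median 0.11).

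Across barcode types the 10 genes split into Jund and the rest. Haemoglobin-led barcodes held 326 Jund UMIs in 222 of 1190 barcodes and 12 UMIs of the other 9 genes together, whereas epithelial marker-led barcodes held 409 Jund UMIs and 771 of the other 9. In non-haemoglobin CPM Jund stood at 6887 (95% interval 6160 to 7677) in haemoglobin-led barcodes, against 1227 in colonocyte, 1196 in goblet and 658 in fibroblast marker-led barcodes. The colonocyte and goblet levels lay within each other's intervals, and the fibroblast interval, 368 to 1085, overlapped both. The choice of denominator sets the direction: in CPM, haemoglobin included, Jund stood at 1007 in haemoglobin-led barcodes against 1224 in colonocyte and 1195 in goblet marker-led barcodes. Mature mammalian red cells have no nucleus, and reticulocytes, their precursors in blood, still carry RNA.

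**Figure D3:**
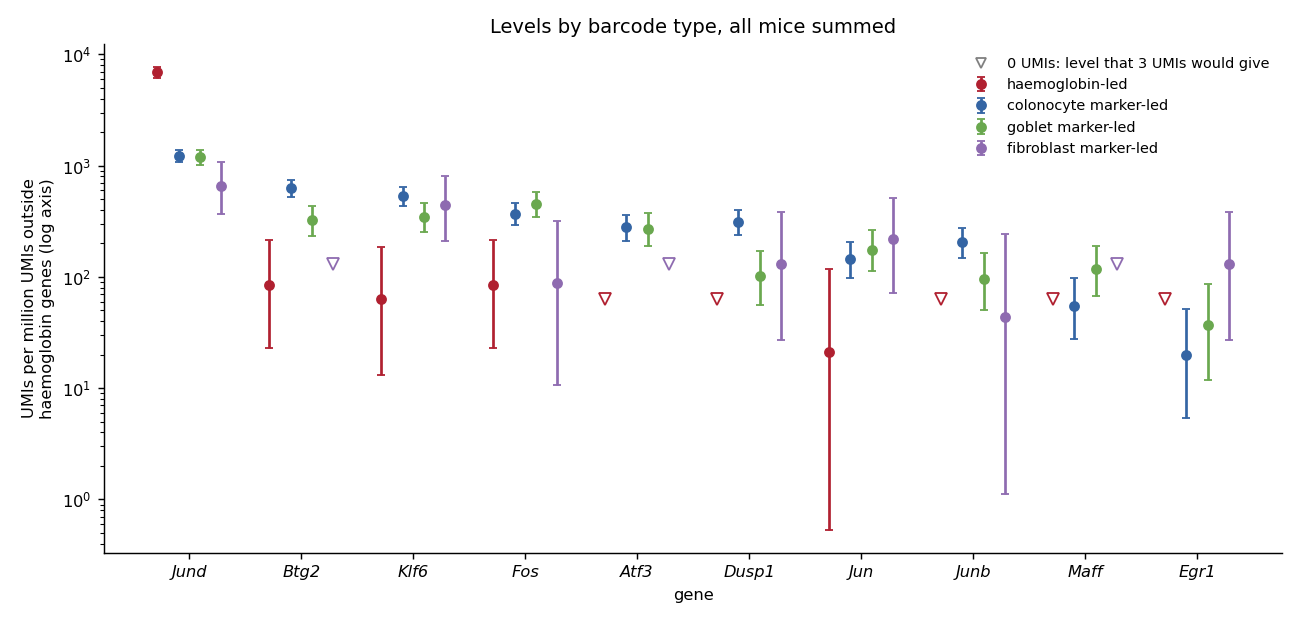
Non-haemoglobin CPM (y axis, log scale) for each gene in haemoglobin-led (red), colonocyte (blue), goblet (green) and fibroblast (purple) marker-led barcodes, all mice summed. Whiskers are exact Poisson 95% intervals, and open triangles stand for 0 UMIs at the level that 3 UMIs would give; Jund is the only gene of the 10 whose haemoglobin-led level lies above the 3 other types on this scale.

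In each mouse that had haemoglobin-led barcodes Jund stood out there on the non-haemoglobin scale. Jund in haemoglobin-led barcodes stood at 7261, 6338, 7181 and 8753 non-haemoglobin CPM in fish oil/pectin mice 1 to 4 and at 5545, 7061 and 6895 in corn oil/cellulose mice 1, 2 and 4. In epithelial marker-led barcodes it stood at 509, 1134, 1636 and 993 in fish oil/pectin mice and at 589, 2076, 1370.2 and 1372 in corn oil/cellulose mice 1 to 4. On this scale every haemoglobin-led level lay above every epithelial one, and the diets overlapped in both. Over the 7 mice with both types the difference, haemoglobin-led minus epithelial, was 2.70 ± 0.72 on the log2 scale (SD, n = 7), above 0 in 7 of 7, with a two-sided exact sign-flip permutation p of 0.0156, the smallest that 7 mice allow. This test was chosen after the Jund values were seen. With haemoglobin UMIs in the total the difference was -0.057 ± 0.81, above 0 in 3 of 7 (SD, n = 7, exact permutation p = 0.828): Jund stood at 781, 1126, 966 and 1363 CPM in haemoglobin-led barcodes of fish oil/pectin mice 1 to 4, against 509, 1131, 1630 and 990.0 in their epithelial marker-led barcodes. In corn oil/cellulose mice 1, 2 and 4 it stood at 1187, 866 and 989 CPM in haemoglobin-led and 588, 2074 and 1369 in epithelial marker-led barcodes. Jund made up 93.5% to 100% of the members' UMIs in haemoglobin-led barcodes and 21.3% to 46.0% in epithelial marker-led barcodes, a share that does not depend on the denominator.

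**Figure D4:**
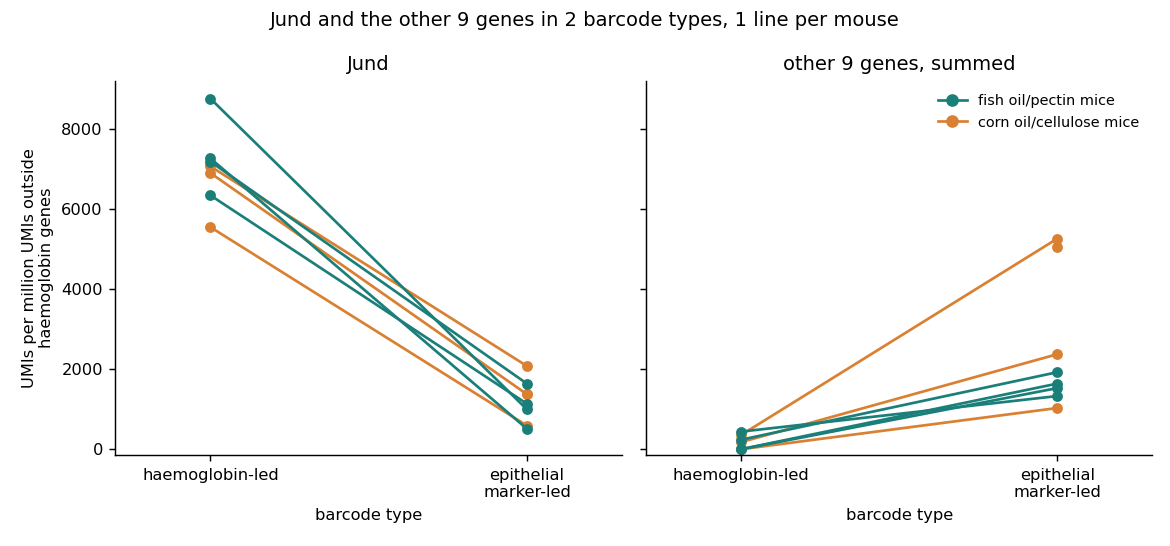
Jund (left) and the other 9 genes summed (right), in non-haemoglobin CPM (y axis), in haemoglobin-led and epithelial marker-led barcodes (x axis), 1 line per mouse, teal for fish oil/pectin and orange for corn oil/cellulose. Jund lies higher and the other genes lie lower in haemoglobin-led than in epithelial marker-led barcodes of all 7 mice with both types; corn oil/cellulose mouse 3 had no haemoglobin-led barcode and is a single point.

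In the edgeR fit over 24 sums of mouse and barcode type, from which haemoglobin and type marker genes were left out, with the mouse as a block, haemoglobin-led barcodes against the mean of the other types gave 237 of 609 genes called (38.9%), 139 higher (22.8%) and 98 lower (16.1%). Of 5 members tested 1 was called, Jund, higher by 3.15 (log2, SE 0.35, edgeR adjusted p = 4.69e-18). Scaling moved all genes in this contrast: the median gene was at -0.59 with TMM, -1.77 with RLE and -2.24 with library size alone, and Jund was at 3.15, 1.72 and 1.30, so that it lay 3.74, 3.48 and 3.54 above the median gene under the 3 scalings. Over the 15 fits that distance ran from 2.65 to 4.21. Library size in these fits was the sum over the genes kept, and not the total outside haemoglobin genes.

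Fos, at -1.14 (SE 0.86, edgeR adjusted p = 0.320), and Klf6, at -1.81 (SE 0.79, edgeR adjusted p = 0.0570), did not pass this contrast with TMM. Klf6 passed in 10 of 14 alternatives, over which its edgeR adjusted p ran up to 1.00, and Fos passed in 3 of 11, namely RLE, library size alone and barcodes of at least 100 UMIs. Under RLE Fos was at -2.70 and Klf6 at -3.59 (edgeR adjusted p = 0.00471 and 3.12e-05). Fos turned to 0.090 without corn oil/cellulose mouse 2, and Klf6 turned to 0.27 when at least 5 marker UMIs were asked for. Btg2 had 4 UMIs, 84.5 non-haemoglobin CPM, in haemoglobin-led and 169 UMIs, 502 CPM, in epithelial marker-led barcodes. Its fitted value, 0.47 (SE 0.85), is against a mean of types that includes fibroblast marker-led barcodes, where it had 0 UMIs, and it turned to -0.27 with RLE and -0.99 with library size alone. Fos also had 4 UMIs in haemoglobin-led barcodes, Klf6 had 3 and Jun 1. Atf3, Dusp1, Junb, Maff and Egr1 had 0 UMIs there, among 47335 UMIs outside haemoglobin genes, which allows up to 63.4 CPM for each (3 UMIs over the group). Against that limit Atf3 was at least 4.36-fold lower in haemoglobin-led than in epithelial marker-led barcodes, Dusp1 at least 3.56-fold and Junb at least 2.53-fold. The Atf3 bound rests on corn oil/cellulose mouse 3, which has no haemoglobin-led barcode and 58 of the 93 epithelial Atf3 UMIs: without it the bound was 1.79-fold, and without fish oil/pectin mouse 4 it was 6.99-fold. Leaving out each mouse, the Dusp1 bound fell as low as 2.55-fold and the Junb bound as low as 1.75-fold, both without corn oil/cellulose mouse 4. For Maff the bound, 1.27-fold, was lost without fish oil/pectin mouse 3 or corn oil/cellulose mice 2 or 4. For Egr1, with 9 UMIs in epithelial marker-led barcodes, the limit lies above the epithelial level and no fold is given. Haemoglobin-led barcodes also held 257 UMIs of the goblet list and 110 of the colonocyte list, and the part of such epithelial RNA in the 12 UMIs of the other 9 members was not tested.

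Of the listed pathway genes, Fosl2 and Klf4, an epithelial and stress-responsive zinc finger factor, were lower in haemoglobin-led barcodes, and Gclm, a subunit of the enzyme that starts glutathione synthesis, was higher. Fosl2 was at -2.04 (edgeR adjusted p = 0.0310) as the 1 other AP-1 gene tested, Klf4 at -2.21 (edgeR adjusted p = 0.000703) as 1 of 6 immediate early genes, and Gclm at 4.70 (edgeR adjusted p = 2.77e-18) as 1 of 2 small Maf and NRF2 genes. Klf4 was chosen after its values were seen. With RLE these were -3.77, -3.91 and 3.14, and Fosl2 no longer passed in edgeR without corn oil/cellulose mouse 1 (adjusted p = 0.165), without fish oil/pectin mouse 3 (adjusted p = 0.113) or with at least 5 marker UMIs (adjusted p = 0.159).

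Within the epithelium, colonocyte against goblet marker-led barcodes gave 41 of 609 genes called (6.73%), 9 higher (1.48%) and 32 lower (5.25%), and 0 of the 5 members tested. Klf6 was at 0.40 (SE 0.42), Btg2 at 0.50 (SE 0.39), Fos at -0.42 (SE 0.39), Atf3 at -0.079 (SE 0.48) and Jund at -0.021 (SE 0.39), and with RLE, which moved the median of all genes to 0.68 from -0.044, all 5 lay above 0. Summed over mice, Dusp1 stood at 309 non-haemoglobin CPM (237 to 397, 62 UMIs) in colonocyte and 103 (56.2 to 172, 14 UMIs) in goblet marker-led barcodes. Btg2 stood at 624 (519 to 743, 125 UMIs) in colonocyte and 323 (235 to 433, 44 UMIs) in goblet marker-led barcodes. Junb stood at 205 (147 to 278, 41 UMIs) in colonocyte and 95.4 (50.8 to 163, 13 UMIs) in goblet marker-led barcodes, with overlapping intervals. Maff had 11 UMIs in colonocyte and 16 in goblet marker-led barcodes. These intervals do not cover the spread between mice, and in the fit without a count filter Dusp1 was at 1.55 (edgeR adjusted p = 0.476) and Junb at 1.38 (edgeR adjusted p = 0.975). Nupr1, a stress-induced chromatin protein, was the listed pathway gene that passed here, at -3.02 (edgeR adjusted p = 1.08e-08), and -2.37 with RLE.

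Fibroblast marker-led barcodes were few, 88, with 39 UMIs of the 10 genes. Only 3 mice gave a fibroblast sum to the fit, fish oil/pectin mouse 1 and corn oil/cellulose mice 1 and 2. Fish oil/pectin mouse 1 had no goblet or colonocyte sum, so both kinds of sum met only within corn oil/cellulose mice 1 and 2. Against the epithelial types 92 of 609 genes were called (15.1%), 51 higher (8.37%) and 41 lower (6.73%), and 1 of 5 members tested, Btg2, with 0 UMIs in fibroblast and 169 in epithelial marker-led barcodes, at least 3.81-fold lower by the limit of 3 UMIs over the group, or 2.18-fold without corn oil/cellulose mouse 2. Its edgeR adjusted p was 0.0319, and it ran up to 0.501 over the alternatives, passing in 6 of 12; without corn oil/cellulose mice 1 or 2 it did not pass (adjusted p = 0.119 and 0.501). Atf3 also had 0 UMIs in fibroblast marker-led barcodes and did not pass (edgeR adjusted p = 0.228). Its epithelial level without corn oil/cellulose mouse 3, 113 CPM, lies below the limit of 132 CPM, so no fold is given. Klf6 had 10 UMIs there, 439 CPM (210 to 807), beside 457 in epithelial marker-led barcodes, but 7 of the 10 were from corn oil/cellulose mouse 1, without which it stood at 162 CPM. Its fitted value, 0.60 (SE 0.81), ran from -6.67 with at least 5 marker UMIs to 6.63 without corn oil/cellulose mouse 2, and it passed with RLE alone, at 3.29 (edgeR adjusted p = 0.00734). Jun had 5 UMIs, 4 of them in 1 barcode of corn oil/cellulose mouse 4, and Egr1 had 3, in 3 barcodes. With RLE the median of all genes moved to 0.72 from -0.83. Klf2, a zinc finger factor chosen here after its values were seen, was the listed pathway gene that passed, at 7.41 (edgeR adjusted p = 0.000289), but not without corn oil/cellulose mouse 2 (adjusted p = 0.369).

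Atf3 was the gene most gathered in 1 library. Corn oil/cellulose mouse 3 held 127 of its 183 UMIs (69.4%), in 26 of 106 barcodes. The richest barcode held 17 UMIs, the 3 richest held 36.2% of the mouse's Atf3 UMIs, and the 5 richest were needed to pass 50% of them. No barcode of another mouse held more than 4. Within that mouse 9 of 22 colonocyte marker-led barcodes carried Atf3 with 36 UMIs, 5 of 19 goblet marker-led with 22, 12 of 60 unassigned with 69 and 0 of 5 smooth muscle marker-led. The barcodes with Atf3 held 33344 UMIs and those without held 48056, so the carriers were deeper than the rest.

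**Figure D5:**
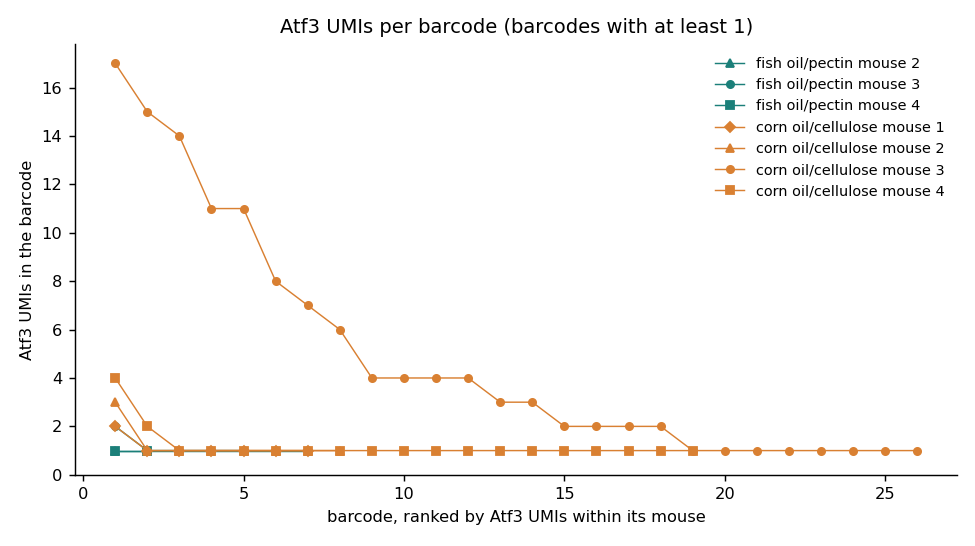
Atf3 UMIs in each barcode that has at least 1 (y axis), ranked within its mouse (x axis), for 3 fish oil/pectin mice (teal) and 4 corn oil/cellulose mice (orange); fish oil/pectin mouse 1 had none. Corn oil/cellulose mouse 3 has 26 such barcodes with up to 17 UMIs, whereas barcodes of the other mice hold 1 to 4.

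In colonocyte marker-led barcodes Atf3 stood at 2261 non-haemoglobin CPM (1584 to 3130) in corn oil/cellulose mouse 3, and in goblet marker-led barcodes of that mouse at 1863 (1167 to 2820). The intervals overlap, so the level was high in both epithelial types of that mouse. In epithelial marker-led barcodes of the remaining mice it ran from 0 to 481 in fish oil/pectin mice and from 0 to 484 in corn oil/cellulose mice, with 481 resting on 5 UMIs of fish oil/pectin mouse 3 and 484 on 7 UMIs of corn oil/cellulose mouse 2. Fish oil/pectin mouse 4, the deepest of its diet in epithelial RNA with 138999 UMIs, had 1 Atf3 UMI, 7.19 CPM (0.182 to 40.1), against 21 in corn oil/cellulose mouse 4, 190 CPM (117 to 290).

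Of the other 9 genes, Jun had the largest share in 1 library, 40.2% of its UMIs in corn oil/cellulose mouse 4. In corn oil/cellulose mouse 3 Fos had 55 UMIs in 20 barcodes with up to 8 in one, and in fish oil/pectin mouse 4 it had 36 UMIs in 23 barcodes with up to 5. Jund had up to 17 UMIs in a barcode of corn oil/cellulose mouse 3, the barcode with the most UMIs of the 10 genes, 54 of its 5028. That barcode, unassigned by type, held 17 UMIs of Jund, 14 of Atf3, 7 of Btg2, 6 of Fos, 3 each of Klf6, Junb and Maff, and 1 of Dusp1. Barcodes with at least 5 of the 10 genes numbered 5 in fish oil/pectin mouse 4, and 1, 16 and 9 in corn oil/cellulose mice 2, 3 and 4, and 0 in the other mice.

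The other 9 genes stood higher in barcodes with a Fos UMI than in the rest. Leaving Fos out of the totals, they stood at 3012, 2720 and 2957 CPM in barcodes with Fos of fish oil/pectin mice 2, 3 and 4, against 1652, 939 and 1884 in barcodes without Fos. In corn oil/cellulose mice 1 to 4 they stood at 2865, 4733, 9434 and 3891 in barcodes with Fos, against 1616, 2325, 2375 and 2037 without. Fish oil/pectin mouse 1 had 1 barcode with Fos and 0 UMIs of the other genes in it, and its log2 ratio, 1.38, comes from the pseudocount of 0.5 alone. Over all 8 mice the log2 ratio was 1.18 ± 0.45 (SD, n = 8, two-sided exact sign-flip permutation p = 0.00781, the smallest possible). Without that mouse it was 1.16 ± 0.48, above 0 in 7 of 7 (SD, n = 7, exact permutation p = 0.0156, again the smallest possible).

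The mix of types moved with this ratio, since haemoglobin-led barcodes held 4 of the 279 Fos UMIs. Without them the mean was 1.05, or 0.99 without fish oil/pectin mouse 1, and within epithelial marker-led barcodes it was 0.63 ± 0.63, above 0 in 7 of 8 mice (SD, n = 8). Without fish oil/pectin mouse 1, whose sign comes from the pseudocount here too, it was 0.68 ± 0.66 in epithelial marker-led barcodes, above 0 in 6 of 7 (SD, n = 7, exact permutation p = 0.0312). With Jun in place of Fos and without that mouse, again for the same reason, it was 1.37 ± 1.10, above 0 in 7 of 7 (SD, n = 7, exact permutation p = 0.0156). Its highest value, 3.52 in fish oil/pectin mouse 3, rests on 4 UMIs in 2 barcodes. With Atf3 in place of Fos, in the 6 mice with UMIs of the other genes in such barcodes, it was 0.87 ± 1.01, above 0 in 5 of 6 with an exact permutation p of 0.0938, and it was largest, 2.28, in corn oil/cellulose mouse 3. Barcodes with Fos were mostly deeper: their median was 596 UMIs against 518 without Fos in fish oil/pectin mouse 4, and 1006 against 465 in corn oil/cellulose mouse 3, while in fish oil/pectin mouse 3 it was 112 against 128. The part of depth in the ratio was not tested beyond barcodes of at least 100 UMIs, where the mean was 1.25.

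Over the 24 sums of mouse and type, the genes whose levels followed Jund most closely by Spearman correlation among 1613 genes were Bsdc1 (0.90), Ucp2 (0.89), Slc25a37, the mitochondrial iron importer (0.87), Fis1 (0.86) and Dcaf12 (0.85). For Atf3 they were Casp1 (0.87), Ptprf (0.85), Trpv3 (0.84), Nt5e (0.84) and Pmp22 (0.83). These sums share mice, depth and the haemoglobin split, so the correlations are descriptions.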

How the data were processed

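Per the labels, colon sections of 8 mice, 4 per diet, were profiled with the multiplexed fixed RNA kit of 10x Genomics. Per the submitters' processing notes Cell Ranger 8.0.0 was used, and they list the builds mm10 and GRCm39. The authors deposited 1 matrix per mouse of whole-number UMI counts by barcode, not normalized. Doublets were not called.

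The 10 genes, the marker and pathway lists and the tests were chosen with earlier results of these data known. Members are all named; of each pathway list up to 4 tested genes of smallest unadjusted p in the diet fit are named, and the 5 genes most like Jund and Atf3 among those with at least 50 UMIs. Counts were summed per mouse, over all barcodes or over a type with at least 10 barcodes, and fitted in R 4.3.3 with edgeR 4.0.16 (genes kept by filterByExpr at a minimum of 5 counts, TMM scaling, robust quasi-likelihood test, Benjamini-Hochberg adjustment over all genes tested). Type fits left out type marker genes, haemoglobin included, and had the mouse as a block. In the edgeR fits library size was the sum over the genes kept. Sign-flip tests over mice enumerated all sign patterns in numpy 2.4.6, and Poisson intervals came from scipy 1.17.1. Alternatives used DESeq2 1.42.0, limma 3.58.1, other scalings and filters, other type rules, the pool and leaving out each mouse. Fits were tested on simulated data first. Mouse numbers were not used to pair the samples in the main fits.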

Additional observations from a re-analysis of the deposited data

Results flagged for a closer look

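Of 40 groups of 4 mice examined, 1 per gene, diet and scale, 4 held a mouse far from its group by Dixon's criterion, which chance does in about 1 group in 20. Atf3 over all barcodes stood at 1560.2 CPM (UMIs per 1000000 UMIs) in corn oil/cellulose mouse 3, against 41.4 to 100.1 in the other corn oil/cellulose mice. Junb over all barcodes stood at 149 CPM in fish oil/pectin mouse 4, from 30 UMIs, where mice 1 to 3 of that diet had 0 to 19.4. In epithelial marker-led barcodes Atf3 stood at 481 non-haemoglobin CPM in fish oil/pectin mouse 3, from 5 UMIs, where mice 1, 2 and 4 of that diet had 0 to 39.1. Jun in epithelial marker-led barcodes was at 0 in corn oil/cellulose mouse 1, among 6793 UMIs. The other corn oil/cellulose mice had 199 to 216 non-haemoglobin CPM. The exact Poisson upper limit for that 0 was 543 non-haemoglobin CPM, above the levels of those mice. The Jun counts therefore do not set corn oil/cellulose mouse 1 apart from its group.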

How the results depend on the processing

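Between diets over all barcodes, 4 genes were called without a count filter and 2 with the mouse number as a replicate block, against 0, and leaving out each mouse gave 0 to 1, with 1 of 4740 tested without fish oil/pectin mouse 4. In epithelial marker-led barcodes 1 was called without a filter, 1 with at least 5 marker UMIs and 2 with the replicate block, against 0, and leaving out each mouse gave 0 to 5, with 5 of 457 tested without fish oil/pectin mouse 4; Atf3 was one of the 2 under the block, at -3.03 (edgeR adjusted p = 0.0477). Same-numbered mice correlated at 0.19, -0.19, -0.06 and 0.26 for numbers 1 to 4. The mice numbered 1 also shared inferred pool 1 and those numbered 4 shared pool 2, whereas numbers 2 and 3 were split between the pools. Fibroblast against epithelial gave 61 without a filter, 18 with at least 5 marker UMIs and 59 in barcodes of at least 100 UMIs, against 92, and 6 to 128 leaving out each mouse, from 6 of 1079 tested without corn oil/cellulose mouse 2 to 128 of 736 without fish oil/pectin mouse 3. Haemoglobin-led against other gave 366 with RLE, 361 without a filter and 387 with library size alone, against 237, and 137 to 321 leaving out each mouse, from 137 of 238 tested without corn oil/cellulose mouse 4 to 321 of 1114 without fish oil/pectin mouse 1, beside 237 of 609. Colonocyte against goblet gave 97 with RLE, against 41, and 6 to 55 leaving out each mouse, from 6 of 238 without corn oil/cellulose mouse 4 to 55 of 1136 without corn oil/cellulose mouse 1. With RLE the share of calls also shifted, to 127 higher and 2 lower for fibroblast (51 and 41 with TMM), 105 and 261 for haemoglobin-led (139 and 98), and 82 and 15 for colonocyte against goblet (9 and 32). Jund between diets, 0.28, turned to -0.46 with library size alone, -0.57 without haemoglobin-led barcodes, -0.45 with the pool, -0.13 with the replicate block and -0.33 without fish oil/pectin mouse 3 (-0.33 to 0.54 leaving out each mouse), and its epithelial value, -0.22, to 0.064 with separate sums. In haemoglobin-led barcodes Fos, -1.41 to 0.090 leaving out each mouse, turned to 0.090 without corn oil/cellulose mouse 2 and Klf6 to 0.27 with at least 5 marker UMIs. With Atf3 in place of Fos the ratio over mice was 0.52, or 0.87 in mice with UMIs of the other genes there, and no longer passed. For the ratio with Fos itself, leaving out each mouse gave 1.07 to 1.26. Btg2 in haemoglobin-led barcodes, 0.47, turned to -0.27 with RLE, -0.71 without a filter, -0.99 with library size alone and -0.20 without corn oil/cellulose mouse 3 (-0.20 to 0.74 leaving out each mouse), and Klf6 in fibroblast marker-led barcodes, 0.60, to -0.40 without a filter, -6.67 with at least 5 marker UMIs, -0.039 in barcodes of at least 100 UMIs and -2.70 without corn oil/cellulose mouse 1 (-2.70 to 6.63 leaving out each mouse). Jund over mice, 2.70, turned to -0.057 with haemoglobin UMIs in the total. Jund passed in the edgeR fit in haemoglobin-led barcodes in all 14 alternatives, at 1.30 to 3.30. The Jund test over mice was chosen after seeing the data. Library size alone, haemoglobin UMIs in the total, limits without each mouse, the separate epithelial sums, adding unassigned barcodes, the epithelial and Atf3 forms of the Fos comparison, and its forms in mice with UMIs there were also chosen after seeing the data. The causes of these shifts were not tested. Depth limits all of this: 6439 of the 8588 barcodes were unassigned, 4924 of them from corn oil/cellulose mouse 1, and Egr1, with 25 UMIs, could not be compared.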

Other observations

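Outside the main barcode types the 10 genes had few UMIs. The 55 smooth muscle marker-led barcodes held 7 UMIs of the 10 genes, 4 of them Jund, which stood at 298 non-haemoglobin CPM (exact Poisson 95% interval 81.3 to 764). Fos, Jun, Junb, Atf3, Klf6 and Egr1 had 0 UMIs there, among 13413, which allows up to 224 CPM. The 15 myeloid marker-led barcodes held 20 UMIs of the 10 genes, with 6 of Klf6 in 4 barcodes and 4 of Fos in 1 barcode. The 32 adipocyte marker-led barcodes held 4, of which 3 were Dusp1. The unassigned barcodes held 40.3% of the UMIs of the 10 genes and 38.6% of all UMIs.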
